A study of Mus musculus with 6 samples.

Results

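Fatty acid uptake and beta-oxidation genes in developing mouse gastrocnemius, a calf muscle made up mainly of fast fibres, were followed from late embryo to adult. The set holds 39 genes, taken by symbol from the 23367 gene entries of the expression table, and was divided by step into uptake and storage (9 genes), activation (5), the carnitine shuttle (4), the oxidation spiral (12), electron transfer (3) and the fuel switch (6). The mice were wild type, of the FVB strain, and their polyA RNA gave 6 libraries covering 5 stages. The E18.5 library pooled 21 male and female embryos at embryonic day 18.5, and the PN2 library pooled 6 male pups at postnatal day 2. The 2 PN14 libraries (postnatal day 14), the PN28 library (postnatal day 28) and the adult library (22 weeks) each came from 1 male. PN14 was therefore the only stage with replicates, and every library had its own sequencing lane, so that lane and stage cannot be told apart.

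Skeletal muscle burns fatty acids in its mitochondria. Fatty acids are released from lipoproteins or from the fibre's own lipid droplets, carried across the membrane, joined to coenzyme A, passed into the mitochondrion as carnitine esters and shortened by repeated turns of beta-oxidation, while electrons pass to the respiratory chain through the electron transfer flavoprotein. Birth replaces a supply rich in glucose with fat-rich milk, and weaning returns carbohydrate to the diet; these are background facts, and diet was not measured here.

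Counts on genes ran from 125402932 to 157868359 per library, and the 20 most abundant genes took between 16.03% and 36.9% of them. The summed FPKM (fragments scaled to gene length and to the library's total) of 8 fast fibre genes lay between 31485 and 148821, against 0.03 to 0.12 for 3 hepatocyte genes. The fast fibre sum was 31485 at E18.5, 34665 at PN2, and 142940 and 115072 at PN14. For 6 fibroblast genes it was 6087 at E18.5 and 516 in the adult. For 4 erythroid genes it was 8423 at E18.5 and between 370 and 2092 later. The part of these cell types in the levels given below was not tested. All 39 genes passed the filter on low counts, and none was at 0 in any library.

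As a group, these genes took 0.388% of all counts at E18.5, 0.766% at PN2, 0.884% (replicate 1) and 1.03% (replicate 2) at PN14, 0.634% at PN28 and 0.597% in adult muscle. Their share was lowest before birth and highest at PN14, and both later libraries lay below PN2. After TMM normalization, which scales libraries to a common typical gene, 23 of the 39 genes had their highest level at PN14 and 11 in the adult, against 13.0% and 31.6% of all genes tested. On the same scale 31 of the 39 were lowest at E18.5, against 28.3% of all genes. On deposited FPKM, which are not scaled between libraries, 20 were highest at PN14, 11 at PN2, 5 in the adult and 3 at E18.5, and 25 of the 39 had their highest stage in common on both scales. Those 25 included 16 highest at PN14, among them Fabp3, Acadvl, Hadhb and all 3 electron transfer genes, and 5 highest in the adult, Pnpla2, Acsl6, Crat, Acacb and Pdk2.

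**Figure D1:**
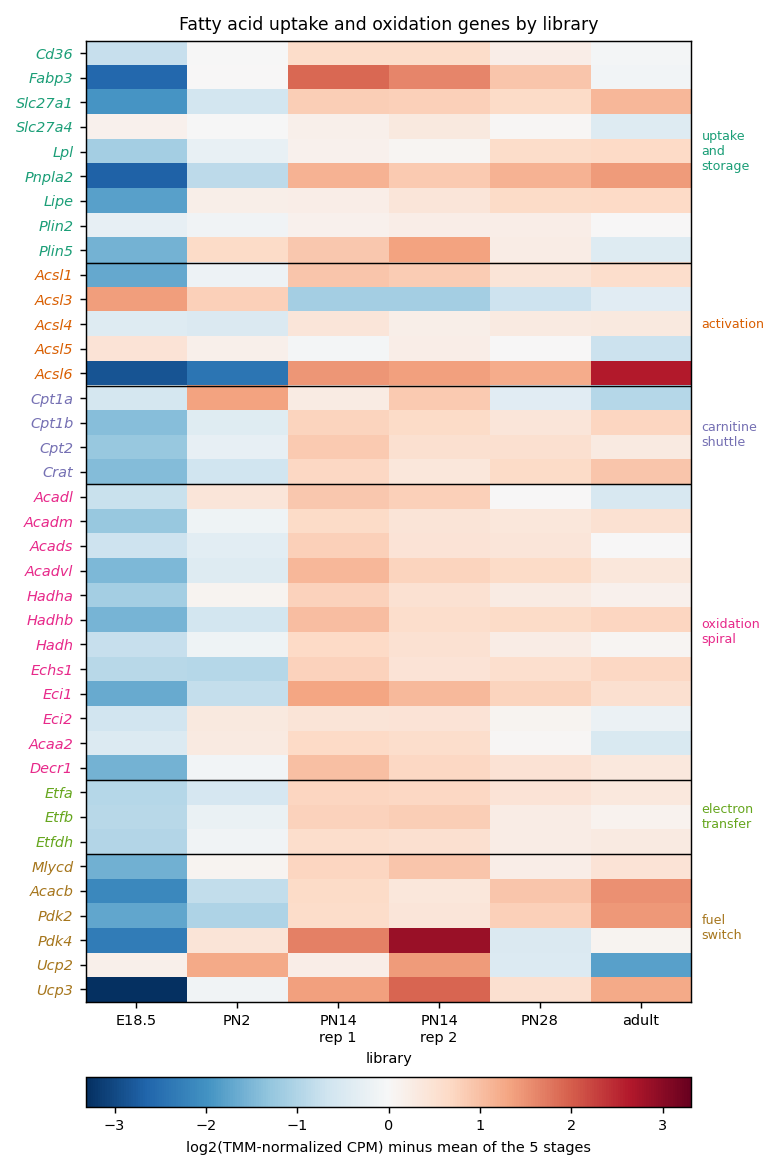
Level of each of the 39 genes (rows, grouped by step) in each of the 6 libraries (columns), as log2 of the TMM-normalized CPM (counts scaled to library size) minus the gene's mean over the 5 stages; red is above and blue below that mean. Most rows are blue at E18.5 and red in both PN14 libraries, while Acsl3 shows the opposite and Cpt1a is highest at PN2.

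Between E18.5 and PN2, 34 of the 39 genes were higher at PN2 and 18 were at least 2-fold higher, where 4.33% of all 16882 genes tested were; none was 2-fold lower, where 4.29% of all genes were. The median log2 fold change of the group was 0.96, against -0.01 over all genes tested. No member passed the test (edgeR's quasi-likelihood test, Benjamini-Hochberg adjusted p under 0.05 and at least 2-fold), in a comparison of 1 library with 1 where 0.0178% of all genes were called as rising and 0.0118% as falling. At an unadjusted p under 0.05 there were 25 members (6.64% of all genes), and 14 were called as rising by DESeq2's Wald test (0.798% of all genes) and 12 by edgeR's exact test (1.11%). The spread behind each of these tests comes from the PN14 pair alone, so they assume the same spread at every stage.

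Between PN2 and PN14, 16 of the 39 genes rose and 1 fell by edgeR's test, where 11.8% of all genes rose and 11.2% fell. The group's median log2 fold change was 0.94, against -0.01 over all genes. These levels depend on scaling: with library size alone the median gene was 0.66 lower on the log2 scale at PN14, the group's median was 0.27, and 6 members rose and 2 fell, where 5.06% of all genes rose and 29.4% fell. The calls of 7 genes were shared by both scalings (Fabp3, Pnpla2, Acsl3, Acsl6, Eci1, Pdk4 and Ucp3), and with library size alone Cpt1a fell as well. Relative to the median gene the group's median was 0.95 higher under TMM and 0.93 higher under library size, and 35 of the 39 genes lay above the median gene in both. At least 17 members were 2-fold higher at PN14 when either PN14 library was left out (17 without replicate 1, where 13.8% of all genes were, and 19 without replicate 2, where 16.6% were), in fits that allow no test.

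Between PN14 and PN28 no member was called, where 0.0178% of all genes rose and 0% fell; 31 of the 39 genes were lower at PN28 and the median was -0.28, against -0.01 over all genes. None was 2-fold higher (3.49% of all genes) and 3, Pdk4, Ucp2 and Ucp3, were 2-fold lower (6.11% of all genes). At an unadjusted p under 0.05 there were 9 members (8.41% of all genes), DESeq2 called Pdk4 and Ucp3 as falling (0.32% of all genes fell), and edgeR's exact test called Pdk4 (0.444%). Cell type markers differed in both directions over the same interval. All 6 slow fibre markers were lower at PN28 (median -1.15, 4 of them at least 2-fold), from summed FPKM of 4053 and 3205 at PN14 to 1476. All 7 endothelial (median -0.52) and all 4 erythroid markers (-0.28) were lower too, and none of these was called. Higher at PN28 were 7 of 8 fast fibre markers (median 0.46), all 7 macrophage (0.30), 5 of 6 fibroblast (0.23) and all 6 white adipocyte markers (2.44, 1 of them called). Their part in the members' levels was not tested. Between PN28 and the adult no member was called either, where 0.16% of all genes rose and 0.361% fell, and 19 of the 39 were higher in the adult. Here 5 members had an unadjusted p under 0.05, a share below the 18.3% of all genes, and DESeq2 called Acsl6 as rising and Fabp3 as falling (1.21% of all genes rose and 4.52% fell).

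**Figure D2:**
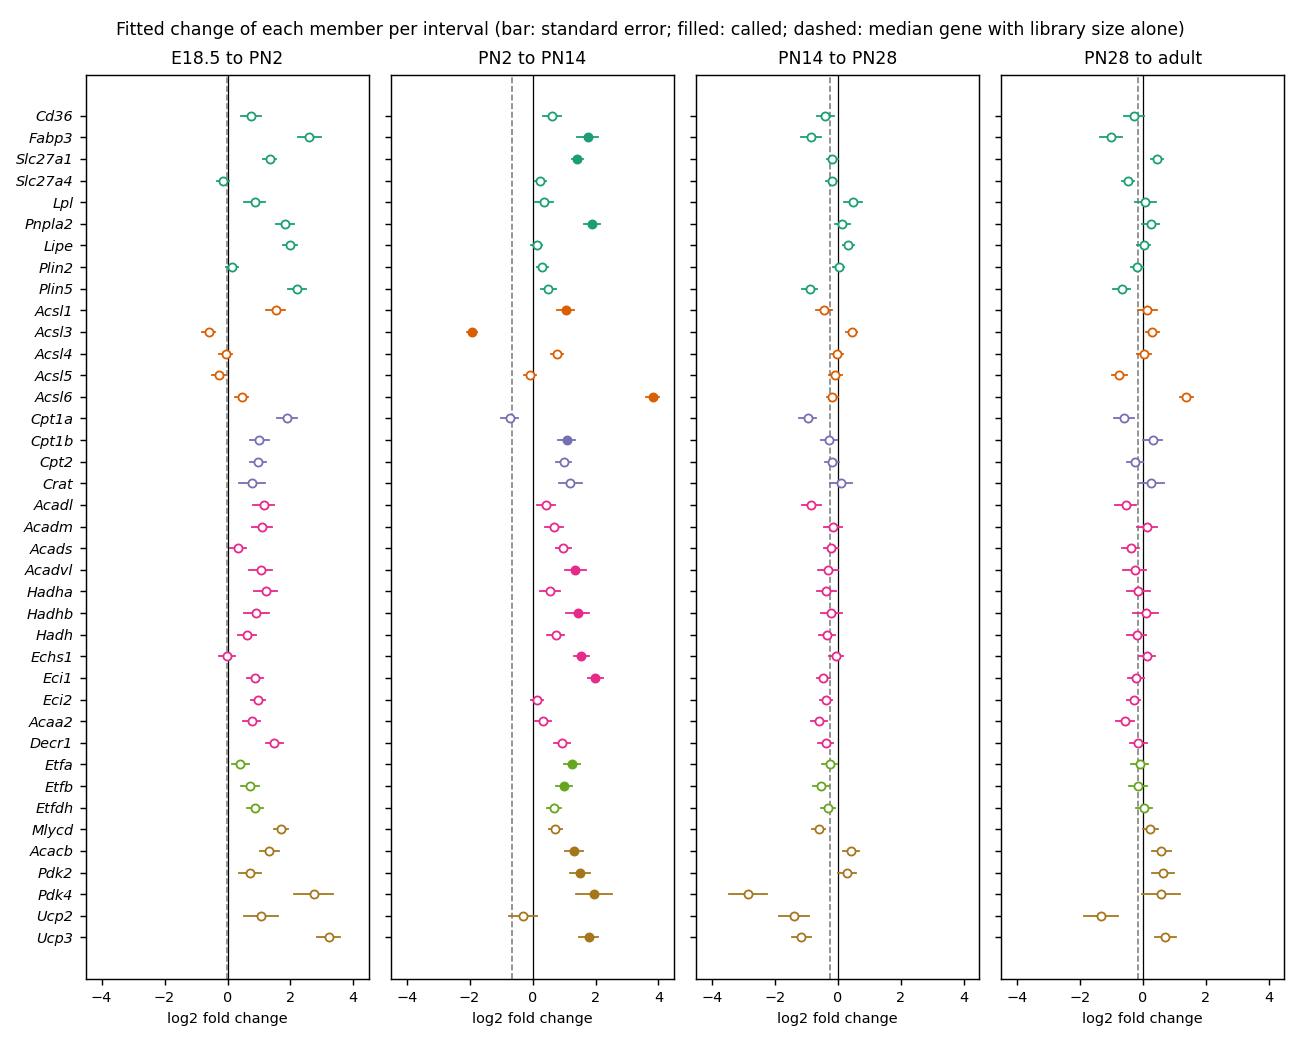
Fitted log2 fold change of each of the 39 genes (TMM, all libraries in a single fit) in the 4 consecutive intervals, with a bar of 1 standard error on either side; filled points passed the test, colours mark the steps, and the dashed line is the median gene when libraries are scaled by size alone. The points of the first 2 panels lie mainly to the right of 0, those of the third mainly just to the left, and filled points occur between PN2 and PN14 alone, where 17 genes were called.

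Over the whole course, from E18.5 to adult, 26 members rose and 3 (Acsl3, Acsl5 and Ucp2) fell, where 21.4% of all genes rose and 23.6% fell. The members' median log2 fold change was 1.60 under TMM and 0.58 under library size, with the median gene at -0.05 and -1.08. Relative to the median gene the group's median was 1.66 higher under both scalings. With library size alone 15 members rose and 6 fell (7.98% and 45.6% of all genes), and 11 of the TMM calls were not made, those of all 3 electron transfer genes among them. From PN2 to PN28, 7 members rose (Slc27a1, Pnpla2, Acsl6, Echs1, Eci1, Acacb and Pdk2) and 2 fell (Acsl3 and Cpt1a), where 14.3% of all genes rose and 12.7% fell. With library size alone 2 members rose and 9 fell (5.05% and 37.3% of all genes), and 4 calls were shared with TMM. In this comparison the direction of the group turned with scaling, from a median of 0.56 under TMM to -0.33 under library size, with the median gene at -0.04 and -0.92. When E18.5 and PN2 were set together against the 4 later libraries, 17 members rose and 1 fell, where 15.1% of all genes rose and 15.3% fell; the stages of a side are not replicates, so this p-value measures the spread between ages as well. Leaving out E18.5 left 5 of these calls (Slc27a1, Pnpla2, Acsl6 and Echs1 higher late, and Acsl3 lower), where 8.94% of all genes were called, and leaving out PN2 gave 24 calls, where 19.2% were.

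Of the 9 uptake and storage genes, 8 were higher at PN2 than at E18.5 and 5 were at least 2-fold higher, where 4.33% of all genes were. Their median log2 fold change was 1.34, and none was called. From PN2 to PN14, 3 of the 9 rose (Fabp3, Slc27a1 and Pnpla2), where 11.8% of all genes rose. All 9 had a fitted change above 0, of which 6 changed sign with library size alone. Under that scaling the median was -0.13 and 2 rose, where 5.06% of all genes rose. Fabp3, the fatty acid binding protein that ferries fatty acids through muscle cytoplasm, had the highest FPKM of all 39 genes at every stage from PN2 on. Its FPKM was 89.3 at E18.5, 543 at PN2, 1159 and 1154 at PN14, 551 at PN28 and 250 in adult muscle. On this scale the PN14 libraries were the highest and nearly equal, and the adult was below PN2. After TMM the PN14 libraries had 808 and 672 CPM, and PN2 and the adult were close, at 219 and 205. Fabp3 rose from PN2 to PN14 by a log2 fold change of 1.76 ± 0.33 (SE, adjusted p = 0.0153), after a difference of 2.60 ± 0.37 from E18.5 to PN2 that was not called. From PN28 to adult its fitted difference was -1.0 ± 0.36.

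Pnpla2, the adipose triglyceride lipase that starts the breakdown of lipid droplets, had the largest fitted rise of this step. Its FPKM was 8.60, 30.3, 70.9 and 70.1, 66.6 and 72.0 in the same order of libraries (the middle pair being PN14 replicates 1 and 2), so that all libraries from PN14 on were nearly level and well above both early ones. The log2 fold change from PN2 to PN14 was 1.88 ± 0.26 (adjusted p = 0.00764). Lipe, the hormone-sensitive lipase of the next step of lipolysis, was 2.74 FPKM at E18.5, 11.3 at PN2 and between 6.65 and 9.07 in the later libraries. It differed mainly before PN2, with log2 fold changes of 1.99 ± 0.21 to PN2 and 0.13 ± 0.18 to PN14.

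The fatty acid transport proteins Slc27a1 and Slc27a4 exchanged places. Slc27a1 had 4.13, 10.4, 16.3 and 19.2, 13.4 and 16.7 FPKM, and Slc27a4 had 9.04, 8.19, 5.32 and 7.07, 4.60 and 3.03. Slc27a1 therefore made up 31.4% of their summed FPKM at E18.5, 56.0% at PN2, 75.3% and 73.1% at PN14, 74.4% at PN28 and 84.7% in adult muscle. Such a share is taken within a library and does not depend on scaling between libraries. Slc27a1 rose from PN2 to PN14 (1.42 ± 0.18, adjusted p = 0.00642), while Slc27a4 differed by 0.24 ± 0.18. With library size alone these values were 0.76 and -0.40, and neither gene was called. Slc27a4 was also the only uptake gene lower at PN2 than at E18.5 (-0.14 ± 0.20).

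The lipid droplet coat proteins also differed from each other. Plin5, which sits on droplets next to mitochondria, was 3.83 FPKM at E18.5, 17.5 at PN2, 12.2 and 19.8 at PN14, 7.26 at PN28 and 4.14 in adult muscle, whereas Plin2, the general droplet coat, stayed between 16.3 and 30.0. On the TMM scale Plin5 rose from E18.5 to adult (1.14 ± 0.27, adjusted p = 0.0157), where the difference was 0.11 and not called with library size alone. Cd36, the main fatty acid translocase of the fibre membrane, was 73.1, 124, 110 and 133, 79.0 and 59.8 FPKM, and its fitted difference from PN2 to PN14 was 0.61 ± 0.28 under TMM but -0.04 under library size. Lpl, the lipoprotein lipase that frees fatty acids from circulating triglyceride, was 57.7 FPKM at E18.5 and between 79.6 and 105 in the other 5 libraries. After TMM it was instead highest in the adult, with 159, 289, 379 and 362, 521 and 548 CPM. On that scale Lpl rose from E18.5 to adult (1.78 ± 0.34, adjusted p = 0.00739), where the value was 0.76 and not called with library size alone.

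White adipocytes also make Lpl, Cd36, Lipe and Pnpla2. The 6 white adipocyte markers summed to 1.78 FPKM at E18.5, 59.7 at PN2, 18.6 and 16.8 at PN14, 116 at PN28 and 75.9 in adult muscle. All 6 were at least 2-fold higher at PN2 than at E18.5, where 4.33% of all genes were. They were also all at least 2-fold higher at PN28 than at PN14, where 3.49% were. In each of these intervals 1 of the 6 was called as rising, where 0.0178% of all genes were. Endothelial cells, which also make Cd36, had 7 markers with sums between 74.9 and 318 FPKM, the latter in PN14 replicate 2. The part of these markers in the uptake results was not tested, and in bulk RNA fewer cells of a type and less RNA per cell cannot be told apart. From PN14 to PN28 Lpl differed by 0.49 ± 0.28, Lipe by 0.33 ± 0.18, Pnpla2 by 0.14 ± 0.24 and Cd36 by -0.39 ± 0.28, none of them called.

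Activation, the joining of coenzyme A by long-chain acyl-CoA synthetases, was divided: from E18.5 to PN2, 2 of the 5 genes were higher and 3 lower, with a median of -0.06. From PN2 to PN14, 2 of the 5 rose (Acsl1 and Acsl6) and Acsl3 fell, where 11.8% of all genes rose and 11.2% fell. Acsl3, a synthetase of the endoplasmic reticulum and lipid droplets, had 40.9 FPKM at E18.5, 27.0 at PN2, 4.09 and 4.98 at PN14, 5.21 at PN28 and 5.81 in adult muscle. Every library from PN14 on lay far below both early ones. The fitted log2 fold change from PN2 to PN14 was -1.92 ± 0.16 (adjusted p = 0.0035). The annotated span of Acsl3 overlaps Utp14b on the same strand, and how reads were divided there is uncertain.

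Acsl6, best known from brain, had the largest rise of all 39 genes. Its FPKM was 1.25 at E18.5, 1.70 at PN2, 14.2 and 15.9 at PN14, 11.4 at PN28 and 27.2 in adult muscle, with a log2 fold change of 3.82 ± 0.21 from PN2 to PN14 (adjusted p = 0.00244). It was near its lowest before PN14 and highest in the adult. Acsl1, the main synthetase of muscle and fat, had 24.1, 69.5, 85.7 and 96.8, 57.4 and 57.8 FPKM and rose by 1.05 ± 0.27 from PN2 to PN14 (adjusted p = 0.034), a call not made with library size alone.

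Within each library Acsl3 made up 47.4% of the summed FPKM of the 5 synthetases at E18.5 and Acsl1 27.97%. At PN2 the order was reversed, at 23.3% and 60.0%, and at PN14 Acsl3 was 3.47% and 3.72% and Acsl1 72.7% and 72.3%. Acsl6 was 1.45% at E18.5, 1.47% at PN2, 12.1% and 11.9% at PN14, 13.2% at PN28 and 27.0% in adult muscle, where it was second to Acsl1 at 57.3%. Acsl4 stayed between 7.32% and 10.5%, and Acsl5 went from 12.6% at E18.5 to 2.35% in the adult. The differences between stages in the shares of Acsl1, Acsl3 and Acsl6 from PN2 to PN14 were larger than those between the PN14 libraries.

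**Figure D3:**
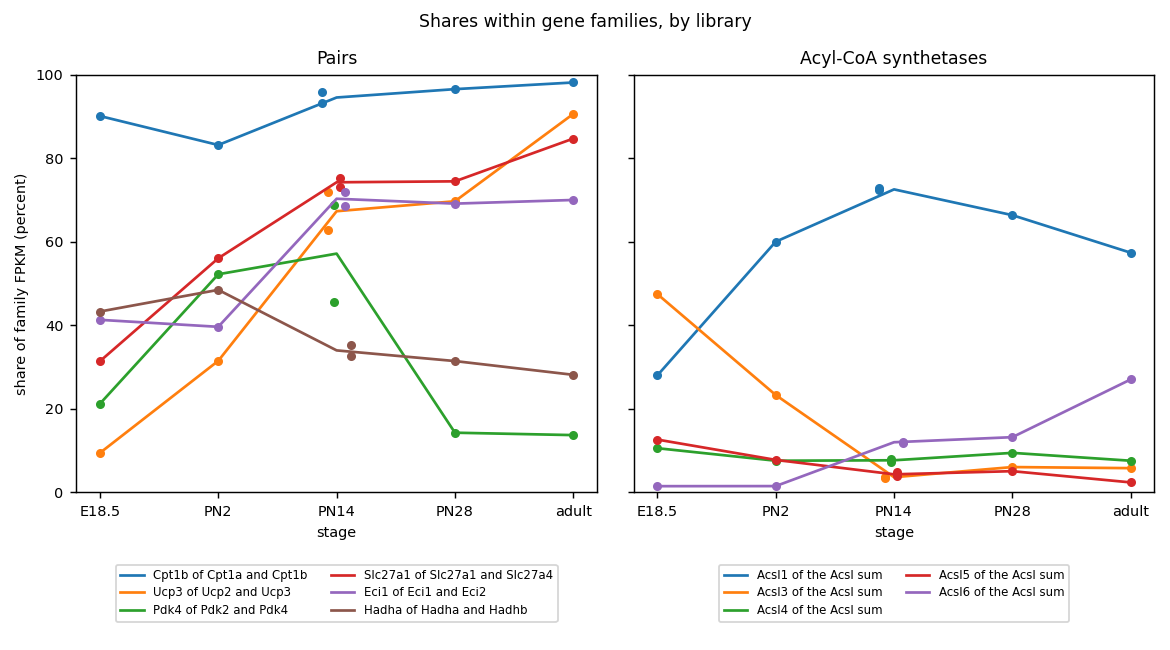
Share of a gene in the summed FPKM of its pair (left) or of the 5 acyl-CoA synthetases (right), in percent, by stage; points are libraries, set slightly apart at PN14, and lines join the stages through the mean of the PN14 pair. Acsl3 gives way to Acsl1 between E18.5 and PN14, Ucp3 goes from 9.41% to 90.6% of its pair, and Pdk4 is the share in which the PN14 libraries lie farthest apart, at 45.6% and 68.7%.

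The carnitine shuttle carries acyl groups into the mitochondrion. Cpt1b, the muscle form of carnitine palmitoyltransferase 1 and the rate-controlling enzyme of the pathway, had 44.9 FPKM at E18.5, 90.7 at PN2, 114 and 129 at PN14, 85.2 at PN28 and 96.3 in adult muscle. It rose from PN2 to PN14 (1.08 ± 0.28, adjusted p = 0.0337), though the value was 0.42 and not called with library size alone. The annotated span of Cpt1b overlaps that of Chkb on the same strand, so its count is uncertain to the extent that reads were shared.

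Cpt1a, the form of liver and most other tissues, was instead highest at PN2, at 18.4 FPKM, against 4.95 at E18.5, 5.12 and 9.26 at PN14, 3.09 at PN28 and 1.87 in adult muscle. It was the only shuttle gene lower at PN14 than at PN2 (-0.73 ± 0.26, adjusted p = 0.0809), and it fell from PN2 to PN28 (-1.69 ± 0.32, adjusted p = 0.0152). Cpt1b was 90.1% of the summed FPKM of both at E18.5, 83.1% at PN2, 95.7% and 93.3% at PN14, 96.5% at PN28 and 98.1% in adult muscle. The muscle form thus predominated in every library, and least at PN2. Crat, carnitine acetyltransferase of the matrix, had the highest level of the step, at 60.6, 103, 151 and 147, 138 and 151 FPKM, and Cpt2, of the inner membrane, was lowest at E18.5 and reached 42.7.

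All 12 genes of the oxidation spiral had fitted changes above 0 from PN2 to PN14 (median 0.83). Of these, 4 were called as rising (Acadvl, Hadhb, Echs1 and Eci1), where 11.8% of all genes were. With library size alone 8 of the 12 were above 0, the median was 0.17, and Acaa2, Acadl, Eci2 and Hadha changed sign. Under that scaling 1 was called as rising, where 5.06% of all genes were. All 12 were lower at PN28 than at PN14 under both scalings (median -0.34 with TMM), with none called. From E18.5 to PN2, 11 of the 12 were higher at PN2, with a median of 0.94, the exception being Echs1, the short-chain enoyl-CoA hydratase, at -0.02 ± 0.26. Echs1 had 51.9 and 51.2 FPKM at E18.5 and PN2, 95.8 and 93.4 at PN14, 77.8 at PN28 and 77.5 in adult muscle. Its rise of 1.55 ± 0.24 from PN2 to PN14 (adjusted p = 0.00982) therefore stood with almost no difference before it. With library size alone the value was 0.89 and not called.

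The acyl-CoA dehydrogenases, which take the first step of each turn for fatty acids of different lengths, changed in proportion. Acadl, the long-chain enzyme, had 138, 304, 246 and 276, 124 and 77.4 FPKM, highest at PN2 and lowest in the adult on this scale, but highest at PN14 and lowest at E18.5 after TMM. Acadvl, the very-long-chain enzyme, had 71.2, 147, 246 and 228, 165 and 126 FPKM and rose by 1.35 ± 0.34 from PN2 to PN14 (adjusted p = 0.0308), which was 0.69 and not called with library size alone. The ratio of Acadvl to Acadl was 0.52 at E18.5, 0.48 at PN2, 0.998 and 0.824 at PN14, 1.33 at PN28 and 1.63 in adult muscle. Acadl made up 44.3% of the summed FPKM of the 4 dehydrogenases at PN2 and 20.5% in the adult, while Acadm, the medium-chain enzyme, was 26.2% and 36.9%.

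The enoyl-CoA isomerases Eci1 and Eci2, which prepare unsaturated fatty acids for oxidation, also diverged. Eci1 had 34.8, 63.7, 158 and 163, 100.2 and 78.3 FPKM, the largest rise of the spiral from PN2 to PN14 (1.99 ± 0.24, adjusted p = 0.00576). Eci2 had 49.5, 97.2, 61.7 and 74.4, 44.8 and 33.6 FPKM, with a difference of 0.13 ± 0.18 over the same interval. Eci1 made up 41.3% and 39.6% of the pair at E18.5 and PN2, and between 68.6% and 71.9% in the 4 later libraries.

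Hadha and Hadhb encode the alpha and beta subunits of the mitochondrial trifunctional protein, which carries out the last 3 reactions of each turn for long chains. They lie head to head on chromosome 5 in the mm9 build, Hadha on the minus strand (chr5:30444841-30481702) and Hadhb on the plus strand (chr5:30481788-30511133), so that their annotated starts are 85 bases apart. The bases between them, the shared promoter region of a pair whose mRNA levels are compared below, are shown for the plus strand (chr5:30481703-30481787), with the 2 matches to GGGCGG, the GC box, in capitals.
Hadha and Hadhb: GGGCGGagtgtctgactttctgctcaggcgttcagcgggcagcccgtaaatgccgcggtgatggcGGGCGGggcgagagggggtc
This stretch is 69.4% G and C and holds 9 CpG.

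The subunits did not keep a constant ratio. Hadha had 64.0, 149, 137 and 138, 92.2 and 76.0 FPKM, and Hadhb had 84.0, 159, 284 and 253, 201 and 194 FPKM. The ratio of Hadha to Hadhb was 0.76 at E18.5, 0.94 at PN2, 0.48 and 0.55 at PN14, 0.46 at PN28 and 0.39 in adult muscle. The step from PN2 to PN14 in this ratio exceeded the difference within the PN14 pair (0.51 ± 0.04, SD, n = 2), and all later libraries lay below both early ones. From PN2 to PN14 Hadhb rose (1.43 ± 0.35, adjusted p = 0.0306) and Hadha did not pass the test (0.55 ± 0.32, adjusted p = 0.227). With library size alone the values were 0.76 and -0.11, and neither was called. The difference between the genes was not tested. Etfa and Etfb, the subunits of the electron transfer flavoprotein that accepts electrons from the dehydrogenases, kept a narrower ratio, between 0.45 and 0.67.

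The 3 electron transfer genes were all higher at PN2 than at E18.5 and at PN14 than at PN2, and lower at PN28 than at PN14, with medians of 0.71, 1.004 and -0.31. Etfb had 155, 254, 288 and 361, 191 and 156 FPKM and Etfa 87.7, 116, 161 and 188, 124 and 105. Both rose from PN2 to PN14, Etfa by 1.25 ± 0.25 (adjusted p = 0.0166) and Etfb by 1.004 ± 0.25 (adjusted p = 0.0303). The latter was at the edge of the 2-fold limit and not called by DESeq2. With library size alone the values for Etfa and Etfb were 0.60 and 0.36, and neither was called. Etfdh, which passes the electrons on to ubiquinone, had between 47.8 and 94.5 FPKM and differed by 0.67 ± 0.23 under TMM.

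The fuel switch genes set the balance between fatty acid and glucose use. Their median was the highest of the 6 steps from E18.5 to PN2, at 1.51, and the lowest from PN14 to PN28, at -0.88. Pdk4, a kinase that shuts off pyruvate dehydrogenase and is known to be induced by fasting and fat, had 14.6 FPKM at E18.5, 97.2 at PN2, 132 and 361 at PN14, 27.9 at PN28 and 37.8 in adult muscle. Both PN14 libraries were above all others, but they were also 1.19 apart on the log2 scale after TMM. Its rise from PN2 to PN14 was 1.95 ± 0.56 (adjusted p = 0.0467) and was no longer called with genes under a mean of 1 CPM left out; the fitted value was 2.42 without PN14 replicate 1 and 1.23 without replicate 2. From PN14 to PN28 the difference was -2.86 ± 0.59 (adjusted p = 0.396), and it was -3.33 and -2.16 without replicates 1 and 2.

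Pdk2, another kinase of the same complex, had a course of its own, with 54.3 FPKM at E18.5, 89.1 at PN2, 158 and 164 at PN14, 168 at PN28 and 239 in adult muscle. It rose from PN2 to PN14 (1.52 ± 0.32, adjusted p = 0.0193), a call not made with library size alone (0.86). Pdk4 made up 21.2% of the pair at E18.5, 52.2% at PN2, 45.6% and 68.7% at PN14, 14.3% at PN28 and 13.7% in adult muscle. Both libraries after PN14 lay below every library from PN2 and PN14.

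Acacb, which makes the malonyl-CoA that inhibits Cpt1, and Mlycd, which removes it, differed after PN14. Acacb had 6.32, 15.8, 25.0 and 24.8, 28.6 and 39.1 FPKM. It rose from PN2 to PN14 (1.32 ± 0.28, adjusted p = 0.0201), a call not made with library size alone (0.65). Mlycd had 14.6, 47.1, 42.0 and 57.4, 27.5 and 29.7 FPKM, and its difference over that interval was 0.72 ± 0.20, under the 2-fold limit. Acacb was above Mlycd only in PN28 and the adult.

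Ucp2 and Ucp3 encode mitochondrial carriers of the uncoupling protein family, Ucp3 being the form typical of muscle and brown fat and Ucp2 of many tissues, immune cells among them. They are neighbours on chromosome 7 of mm9, both on the plus strand, Ucp3 at chr7:107621499-107634941 and Ucp2 at chr7:107641846-107650529, with 6904 bases between them. Because their ratio varied most among the pairs compared, 220 bases upstream of each are given (RefSeq promoter table, GRCm38.p6, each matched once and exactly to mm9), ending 30 bases before the RefSeq start. Capitals mark GGGCGG or its reverse complement CCGCCC, and AGGTCA, the half-site of many nuclear receptors, or its reverse complement TGACCT.
Ucp2: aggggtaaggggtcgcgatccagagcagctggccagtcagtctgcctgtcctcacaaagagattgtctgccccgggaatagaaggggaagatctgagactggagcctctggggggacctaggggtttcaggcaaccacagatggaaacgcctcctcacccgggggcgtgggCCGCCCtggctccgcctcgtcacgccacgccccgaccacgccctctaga
Ucp3: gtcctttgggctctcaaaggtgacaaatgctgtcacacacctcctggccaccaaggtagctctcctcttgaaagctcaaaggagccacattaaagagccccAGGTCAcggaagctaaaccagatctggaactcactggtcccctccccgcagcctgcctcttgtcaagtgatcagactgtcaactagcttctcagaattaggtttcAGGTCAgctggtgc
The Ucp2 sequence (chr7:107641617-107641836) is 64.5% G and C with 13 CpG and 1 GC box, and the Ucp3 sequence (chr7:107621250-107621469) is 52.7% G and C with 2 CpG and 2 half-sites. A match to such letters is a description and not evidence of binding.

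Ucp3 had 2.91 FPKM at E18.5, 26.9 at PN2, 42.9 and 77.0 at PN14, 22.5 at PN28 and 33.7 in adult muscle. It had the largest fitted difference of all members from E18.5 to PN2 (3.21 ± 0.35, adjusted p = 0.115) and rose from PN2 to PN14 (1.78 ± 0.31, adjusted p = 0.012). Ucp2 had 28.03, 58.7, 16.8 and 45.7, 9.80 and 3.51 FPKM, highest at PN2 and lowest in the adult. It fell from E18.5 to adult (-1.97 ± 0.55, adjusted p = 0.0262), while Ucp3 rose by 4.56 ± 0.38 (adjusted p = 0.00124).

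The ratio of Ucp3 to Ucp2 was 0.10 at E18.5, 0.46 at PN2, 2.55 and 1.68 at PN14, 2.30 at PN28 and 9.61 in adult muscle, a range of 92.6-fold. Ucp3 was below Ucp2 in both early libraries and above it in all 4 later ones. The 7 macrophage markers summed to between 63.1 and 125 FPKM, the highest at E18.5 and the lowest in the adult, and their part in the level of Ucp2 was not tested. From PN2 to PN14 the fitted difference of Ucp2 depended on the library, at 0.17 without PN14 replicate 1 and -1.02 without replicate 2.

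Pdk4 and Ucp2 were the only members at least 2-fold apart between the PN14 libraries, that is 2 of 39, where 7.03% of all genes were. Both were higher in replicate 2, Pdk4 by 1.19 and Ucp2 by 1.18 on the log2 scale, followed by Cpt1a (0.59), Ucp3 (0.58) and Plin5 (0.44). The median absolute difference of the 39 genes was 0.20, against 0.22 over all genes. In replicate 2 the endothelial markers summed to 318 FPKM, against 196 in replicate 1, and the macrophage markers to 83.2 against 63.4; their part in these differences was not tested.

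**Figure D4:**
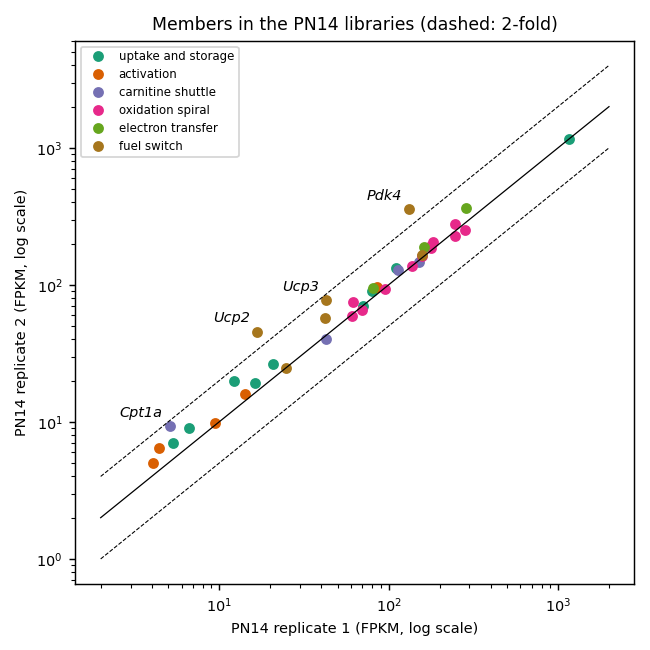
FPKM of the 39 genes in PN14 replicate 1 (horizontal) and replicate 2 (vertical), both on log axes, coloured by step; the solid line marks equality and the dashed lines a 2-fold difference. Most points lie near the solid line, and the genes farthest above it are Pdk4, Ucp2, Ucp3 and Cpt1a.

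The group was also set against the 17 genes of the tricarboxylic acid (TCA) cycle, which oxidizes the acetyl-CoA made from both fat and glucose, within each library, where scaling between libraries has no effect. The geometric mean FPKM of the 39 genes relative to that of the TCA genes was 0.19 at E18.5, 0.33 at PN2, 0.20 and 0.23 at PN14, 0.17 at PN28 and 0.17 in adult muscle. PN2 stood above every other library, and the difference from PN2 to either PN14 library exceeded that within the PN14 pair. For the spiral alone the ratio was 0.47, 0.72, 0.49 and 0.48, 0.37 and 0.35. From E18.5 to PN2 the TCA genes had a median log2 fold change of 0.25, against 0.96 for the fatty acid genes. At least 2-fold higher were 0 of 17 and 18 of 39, where 4.33% of all genes were. From PN2 to PN14, 14 of the 17 TCA genes rose, with a median of 1.63, against 16 of 39 and 0.94, where 11.8% of all genes rose. With library size alone 7 TCA genes rose and 1 fell, with a median of 0.96, against 6 that rose and 2 that fell of the 39, and 0.27. Under that scaling 5.06% of all genes rose and 29.4% fell. Relative to 12 glycolysis enzymes the group was 0.057 at E18.5, 0.13 at PN2, 0.065 and 0.083 at PN14, 0.047 at PN28 and 0.042 in adult muscle.

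**Figure D5:**
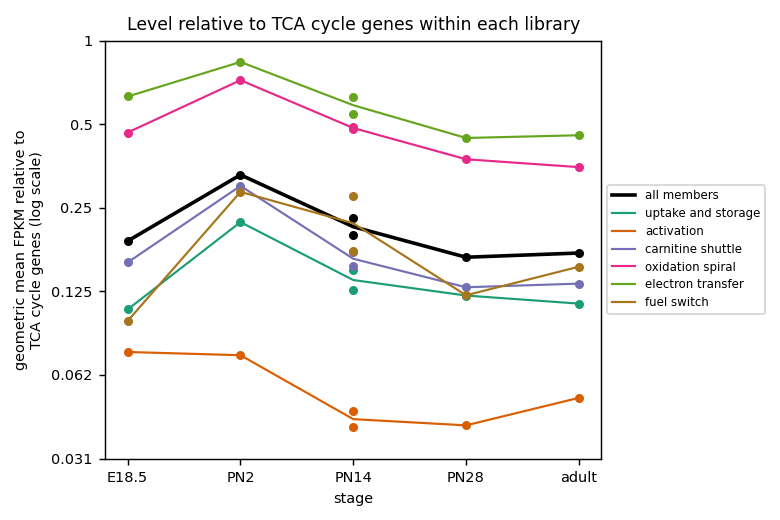
Geometric mean FPKM of all 39 genes and of each step, divided by that of 17 TCA cycle genes in the same library (log axis), by stage; points are libraries and lines join the stages through the PN14 pair. Every step except activation was highest at PN2, where all members together stood at 0.33.

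Other genes of fatty acid metabolism were counted from lists set beside the 39. Of 17 other carnitine and mitochondrial oxidation genes, 8 rose and none fell from PN2 to PN14, with a median of 0.91, against 3 that rose and 2 that fell with library size alone (median 0.25). For this list and the next, the shares of all genes were 11.8% rising and 11.2% falling under TMM, and 5.06% and 29.4% with library size alone. From E18.5 to PN2 the median of the 17 genes was 0.06 and 2 were at least 2-fold higher, where 4.33% of all genes were. The largest rises were those of Acad11, an acyl-CoA dehydrogenase (2.30 ± 0.33), and Acot13, a thioesterase (2.04 ± 0.19). Of 15 peroxisomal oxidation genes, 6 rose and none fell (2 and 1 with library size alone), led by Phyh, the phytanoyl-CoA hydroxylase (3.63 ± 0.36), and Abcd2, a transporter of very long chains (2.64 ± 0.25). Phyh had 15.1 and 14.8 FPKM at E18.5 and PN2 and between 102 and 127 in the later libraries. Their median was 0.28 from E18.5 to PN2 and 0.86 from PN2 to PN14.

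Of 19 other uptake and lipase genes, 7 rose and 2 fell from PN2 to PN14, with a median of 0.58. Of all genes 11.8% rose and 11.2% fell. With library size alone 1 of the 19 rose and 6 fell, with a median of -0.07, where 5.06% of all genes rose and 29.4% fell. Plin4, another droplet protein (1.83 ± 0.31), and Got2, a mitochondrial transaminase also described as a fatty acid binding protein of the plasma membrane (1.66 ± 0.37), rose most, while Slc27a6, a fatty acid transport protein (-2.47 ± 0.32), and Plin1, the adipocyte droplet coat (-2.32 ± 0.34), fell most. Of 13 fatty acid synthesis genes, 2 rose, Scd1, which makes monounsaturated fatty acids (2.49 ± 0.37), and Me1, the malic enzyme that supplies NADPH (1.84 ± 0.48). In the same list 2 fell, Fads1, a desaturase (-1.15 ± 0.22), and Fasn, fatty acid synthase (-1.10 ± 0.19), and the median was -0.51. These counts stand against the same 11.8% and 11.2% of all genes. With library size alone 2 rose and 8 fell, with a median of -1.14, where 5.06% of all genes rose and 29.4% fell. Of 12 genes of the pyruvate dehydrogenase complex, its pyruvate carrier, kinases and phosphatases, 8 rose and 1 fell, where 11.8% of all genes rose and 11.2% fell. Mpc1 and Mpc2, the pyruvate carrier, had the largest rises (2.60 ± 0.31 and 2.27 ± 0.26), and Pdk3 fell by 1.93 on the log2 scale. With library size alone 3 of the 12 rose and 1 fell, where 5.06% of all genes rose and 29.4% fell.

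The promoter windows of the group were compared with all windows of the RefSeq table (GRCm38.p6, 250 bases before to 50 after each start). The table held 42 windows for 34 of the 39 genes, with none for Cpt1b, Crat, Decr1, Acaa2 and Lpl. GGGCGG, on either strand, was present in 28 of the 42 (66.7%), against 35.7% of all 32851 windows and 57.3% of those of the genes tested. AGGTCA, on either strand, was present in 11 (26.2%), against 16.3% of all windows and 13.2% of those of the genes tested; the genes were Acacb, Acadm, Acadvl, Acsl6, Cd36, Cpt1a, Echs1, Plin2, Plin5 and Ucp3. The longer TCAAGGTCA, the element of estrogen-related receptors, contains AGGTCA. It was found in 1 window, that of Acsl6, against 0.423% of all windows and 0.296% of those of the genes tested. CCAAT, on either strand, was present in 20 windows (47.6%), against 37.4% of all windows and 36.9% of those of the genes tested. TATAAA, on either strand, was present in 1, that of Acacb (2.38%), against 13.6% of all windows and 8.28% of those of the genes tested. The median G and C content of the group's windows was 60.7%, against 52.7% over all windows. These shares are descriptions of the letters in the windows, and windows of 1 gene can overlap.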

How the data were processed

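PolyA RNA of 6 gastrocnemius libraries was sequenced as paired ends of 100 cycles on an Illumina HiSeq. Per the study's methods and the labels, the authors used TopHat 2.0.5 for alignment to mm9, and RSEM for counting fragments over the gene models of RefSeq. The deposited expected counts are whole numbers and not normalized. The deposited FPKM values were normalized by the authors to gene length and library total, not between libraries. Whether the libraries kept strand is not given in the sources used here, so members overlapping a gene on the opposite strand are uncertain too (8 members overlap another protein-coding gene, 2 of them on the same strand).

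Counts were analysed in R 4.3.3 with edgeR 4.0.16 (TMM, filterByExpr with stage as group, 16882 genes kept, quasi-likelihood test) in 1 fit of all libraries with stage as group; its 1 residual degree of freedom comes from the PN14 pair (common biological coefficient of variation 0.188, prior degrees of freedom 4.86). Early libraries were set against late ones in a second fit with 4 residual degrees of freedom. Calls needed an adjusted p under 0.05 (over all genes) together with a log2 fold change of 1 or more in size; SE was taken as the log2 fold change over the root of F. DESeq2 1.42.0, edgeR's exact test, other scalings and filters were alternatives. The fits were tested on simulated data.

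The 39 members and the other lists were chosen with earlier results of these data known. All members are counted by step. Values in every library are given for most paralogs, the most abundant member of each step, the called members with the largest change from PN2 to PN14 and most members opposite to their step. From other lists at most 2 genes that rose and 2 that fell most are named. Plin2, Acsl4, Acsl5 and Acadm are given by ranges or shares, and no level is printed for Hadh, Acads, Decr1 and Acaa2. Genes given further values, such as Lpl, Lipe, Cd36, Mlycd, Acacb and Echs1, were added after their values were seen. Loci come from GENCODE M1 (mm9), where all 39 symbols matched, and sequences from the RefSeq table. Figures were drawn with matplotlib 3.10.9 in Python 3.11.15.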

Additional observations from a re-analysis of the deposited data

How the results depend on the processing

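Limits: 5 stages rest on 6 libraries, so calls between single libraries assume the spread of the PN14 pair, and lane and age cannot be told apart. Both early libraries were pools of mice and every later one was 1 mouse, so pooling cannot be told apart from the PN2 to PN14 or early against late comparisons, nor mixed sex from E18.5. Depth did not limit any member, since none was near 0. No paired analysis was possible because PN14 is the only stage with replicate numbers.

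Each count of called members is given with the share of all genes called under the same setting. From E18.5 to PN2, 0 members were called in the report (0.0296%), but 11 with library size alone (1.43%), 8 with no filter (0.495%), 12 with the exact test (1.93%) and 14 with DESeq2 (1.1%). From PN2 to PN14, 17 (23%) became 8 with library size alone (34.5%). From PN14 to PN28, 0 (0.0178%) became 3 with library size alone (1.55%), 1 with the exact test (1.32%) and 2 with DESeq2 (0.832%). From PN28 to adult, 0 (0.521%) became 3 with library size alone (5.14%), 1 with no filter (4.26%), 1 with the exact test (6.53%) and 2 with DESeq2 (5.73%). Early against late, 18 (30.4%) became 8 with library size alone (42.8%) and between 5 (without E18.5, 8.94%) and 24 (without PN2, 19.2%) when 1 library was left out.

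With library size alone, FPKM plus 0.1 and FPKM plus 1 in turn, the members' median log2 difference was 0.27, 0.27 and 0.27 for PN2 to PN14, -0.51, -0.51 and -0.51 for PN14 to PN28, -0.24, -0.24 and -0.24 for PN28 to adult, 0.58, 0.58 and 0.57 for E18.5 to adult, 0.29, 0.49 and 0.40 early against late, and reversed to -0.33, -0.33 and -0.32 from PN2 to PN28. These settings leave out the scaling of TMM. With library size alone the median gene was itself at -0.66, -0.25, -0.15, -1.08, -0.81 and -0.92 in the same order of comparisons. Without either PN14 library the median ranged between 0.79 and 0.97 for PN2 to PN14, and between -0.37 and -0.23 for PN14 to PN28. Cd36 reversed to -0.0434 from PN2 to PN14 with library size alone.

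On counts not divided by length, the PN14 shares were 92.0% for Cpt1b, 54.8% for Ucp3, 66.6% for Slc27a1, 63.5% for Eci1, 74.5% for Acsl1, 50.6% for Hadha and 47.3% for Etfa, because the members of a pair differ in length.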
